A study of Homo sapiens with 12 samples.

Results

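Aminoacyl-tRNA synthetases are the enzymes that attach each amino acid to its own transfer RNA, the step that supplies ribosomes with charged tRNAs. The genes described here are 35 nuclear synthetase genes, 19 for cytosolic and 16 for mitochondrial enzymes, chosen by name from a list of the family and kept where the array carries a probe set annotated to that gene symbol alone. All 35 were measured, out of 18239 genes with such a probe set, and all 35 passed the filter on low levels that left 15173 genes for testing. Older symbols on the array (AARS for AARS1) were brought up to date through their gene identifiers.

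The study treated 3 human multiple myeloma cell lines in culture for 6 h and measured total RNA on 1 Affymetrix array for each line and treatment, 12 arrays in all. The CPI203 group (n = 3 arrays, 1 per line) received 0.01 µM CPI203, an inhibitor of BET bromodomain proteins, which bind acetylated chromatin and support transcription. The LenDex group (n = 3) received 5 µM lenalidomide, which causes loss of the lymphoid factors Ikaros and Aiolos through cereblon, together with 0.05 µM dexamethasone, a glucocorticoid. The Combo group (n = 3) received all 3 drugs at these doses, and the control group (n = 3) received none of them. The lines are labelled ARP1, JJN3 and RPMI-8226, and each drug group holds every line once. Line and treatment are both terms in the fit. The spread behind the tests of drug effects is what these terms leave. It mixes differences between lines in the drug effects with variation between single arrays. Nothing in the labels gives repeat cultures of a line and treatment.

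The arrays of the lines were checked before use. Across all genes tested, arrays labelled JJN3 correlated with those labelled RPMI-8226 at 0.963 to 0.981. RPMI-8226 arrays correlated with each other at 0.976 to 0.99 and JJN3 arrays with each other at 0.98 to 0.99, while ARP1 and JJN3 arrays correlated at 0.876 to 0.887. ARP1 arrays carried plasma cell markers at median log2 levels of 11.85 to 12.05 and B cell markers at 5.2 to 5.64. JJN3 arrays had 7.32 to 9.81 for the plasma cell list and 9.77 to 10.3 for the B cell list, and RPMI-8226 arrays had 6.53 to 8.63 and 9.48 to 9.86. The lists did not move as 1 block. SDC1 (CD138) and PRDM1 lay at 4.84 to 5.97 on JJN3 and RPMI-8226 arrays, near the array background. MS4A1 (CD20) lay at 4.59 to 5.33 on ARP1 arrays, against 11.48 to 12.06 on the other arrays. XBP1 and MZB1 were expressed on the JJN3 and RPMI-8226 arrays at 10.13 to 10.66, IRF4 was lower on ARP1 arrays (11.83 to 12.26) than on the others (12.37 to 13.31), and PAX5 was alike on all arrays (6.87 to 7.41). The JJN3 and RPMI-8226 arrays also differed from each other. HBG1 lay at 13.19 to 13.32 on JJN3 arrays and 6.77 to 8.53 on RPMI-8226 arrays. KRT18 lay at 9.07 to 9.32 and 5.28 to 5.97, and JCHAIN at 7.46 to 9.63 and 4.85 to 5.43. Whether these arrays come from 1 line was not tested. JJN3 and RPMI-8226 are therefore named below as the arrays so labelled. They may not count as 2 independent lines. With both averaged into 1 line, or with either left out, 0 synthetases and 0 genes of the lists of other genes were called in any comparison of CPI203, LenDex or Combo with control or in either average effect.

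In human cells the cytosolic and mitochondrial translation systems use mostly separate synthetases, all encoded in the nucleus. GARS1 and KARS1 each serve both compartments, EPRS1 joins 2 enzyme activities in 1 chain, and FARSA and FARSB are the subunits of the cytosolic phenylalanine enzyme. Several cytosolic enzymes sit in a multi-synthetase complex. During amino acid shortage the kinase GCN2 (EIF2AK4) phosphorylates eIF2, the factor ATF4 is translated, and ATF4 raises transcription of many cytosolic synthetase genes. MYC binds E-box elements and drives genes of protein synthesis, and BET inhibitors are known for lowering MYC in myeloma.

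Promoter sequences of 30 of the 35 genes were read from RefSeq (GRCh38.p14), as 250 bases before to 50 bases after each start site. AARS2, LARS1, VARS1, VARS2 and YARS1 are named only. The 8 letters TTGCATCA, or TGATGCAA on the other strand, are a core of the amino acid response element that ATF4 complexes bind, and they stood in 6 of the 30 genes against 1.08% of all 27305 genes with a promoter in the table. All 6 are cytosolic enzymes: AARS1, CARS1, IARS1, MARS1, NARS1 and TARS1. Their sequences are shown because they set these 6 genes apart within the family, with the element in capitals and 10 bases on either side, in the direction of transcription.
AARS1 (alanine; chr16:70289676-70289703, minus strand): tttctcgcagTTGCATCAgccaagttag
CARS1 (cysteine; chr11:3057408-3057435, minus strand): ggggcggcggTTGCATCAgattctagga
IARS1 (isoleucine; chr9:92293693-92293720, minus strand): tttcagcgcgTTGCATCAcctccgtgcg
MARS1 (methionine; chr12:57488054-57488081, plus strand): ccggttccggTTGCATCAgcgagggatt
NARS1 (asparagine; chr18:57621805-57621832, minus strand): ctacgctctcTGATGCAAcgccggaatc
TARS1 (threonine; chr5:33440957-33440984, plus strand): cgcctttcgaTTGCATCAgctggtccag

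The E-box CACGTG, which reads the same on both strands, stood in 4 of the 30 genes (CARS2, EARS2, IARS1 and MARS2), against 8.77% of all genes in the table. A match is a description of the letters and not evidence that a factor binds there. The 250 bases before the start sites of the mitochondrial methionine gene MARS2 and of IARS1 are shown because both genes fell under treatment and hold a match. YARS2, LARS2 and FARSA also fell under treatment, and their promoters hold no match to either motif. Motif matches are in capitals: the E-box in MARS2, and the E-box followed by TTGCATCA in IARS1.
MARS2 (chr2:197705119-197705368, plus strand): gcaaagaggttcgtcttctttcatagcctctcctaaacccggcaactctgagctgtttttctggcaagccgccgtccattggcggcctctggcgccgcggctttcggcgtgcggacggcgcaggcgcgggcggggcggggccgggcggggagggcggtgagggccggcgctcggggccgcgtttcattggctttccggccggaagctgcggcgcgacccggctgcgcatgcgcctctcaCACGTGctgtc
IARS1 (chr9:92293698-92293947, minus strand): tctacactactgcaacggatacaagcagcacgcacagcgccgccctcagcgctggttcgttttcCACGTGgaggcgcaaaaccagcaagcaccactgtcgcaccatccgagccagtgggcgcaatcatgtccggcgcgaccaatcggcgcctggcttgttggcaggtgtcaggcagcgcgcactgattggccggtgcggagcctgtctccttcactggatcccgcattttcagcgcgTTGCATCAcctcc

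Across the treatments, 5 synthetase transcripts fell in at least 1 comparison and none rose. They were the mitochondrial enzymes MARS2, YARS2 and LARS2, the cytosolic subunit FARSA and the cytosolic enzyme IARS1. Values are log2 probe set levels, so a difference of 1 is a factor of 2. Array levels of the family spanned 5.28 (PARS2) to 12.31 (KARS1), and since probe sets differ in brightness, levels are compared for 1 gene at a time. The average effect of a drug is the mean of its differences with and without the other drugs present, which uses all 12 arrays. A gene was called at a Benjamini-Hochberg adjusted p under 0.05 in limma, fitted over all 15173 genes. In bulk RNA, fewer cells that express a gene and less RNA per cell cannot be told apart.

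MARS2, the mitochondrial methionyl-tRNA synthetase, fell with LenDex in every line. In ARP1 its level was 9.14 with LenDex and 8.79 with Combo, against 9.59 with CPI203 and 9.86 in control. In JJN3 it was 9.52 with LenDex and 9.50 with Combo, against 10.28 with CPI203 and 10.33 in control, and in RPMI-8226 it was 9.57 and 9.58 against 10.33 and 10.41. In each line both arrays with LenDex lay below both arrays without it. The LenDex effect averaged -0.79 ± 0.07 (log2, SE), 1.73-fold lower, with an adjusted p of 0.00212, and it was -0.76 in ARP1 alone and -0.80 for both JJN3 and RPMI-8226. Against control, MARS2 was 1.73-fold lower with LenDex (-0.79 ± 0.10, adjusted p = 0.0214) and 1.89-fold lower with Combo (-0.92 ± 0.10, adjusted p = 0.00343). The CPI203 effect on MARS2 was -0.13 ± 0.07 and was not called. The other probe sets of MARS2 gave the same picture, with LenDex effects between -0.85 and -0.79 over its 3 probe sets, each called when tested singly.

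The average LenDex call of MARS2 held without any 1 of the 12 arrays (adjusted p 0.00256 to 0.0131). It was lost without the whole JJN3 line (-0.78, adjusted p = 0.143) or the whole RPMI-8226 line (-0.78, adjusted p = 0.111), where 8 arrays remained. The call against control was lost in 7 of the 12 single-array omissions, namely the control, CPI203 or LenDex array of JJN3 or RPMI-8226 and the Combo array of JJN3, at adjusted p values up to 0.146 and effects of -0.82 to -0.75.

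**Figure D1:**
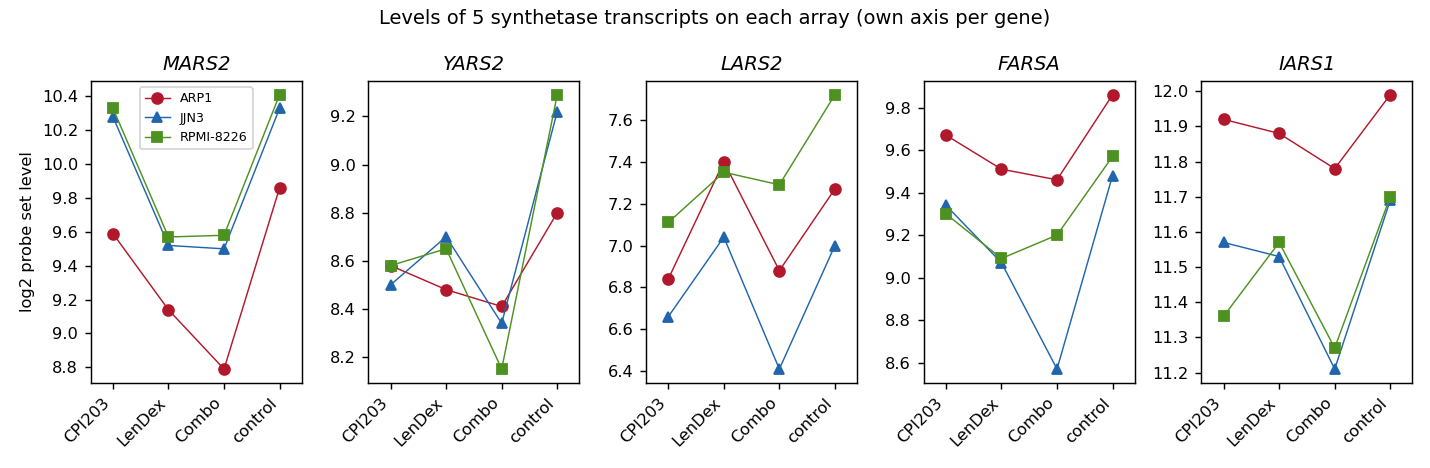
Log2 probe set level of the 5 synthetase transcripts called in a drug comparison, 1 point per array (n = 1 per line and treatment), with a separate vertical axis per gene; lines join the arrays of 1 cell line and carry no order. MARS2 lies lower on both LenDex-containing arrays of each line, and YARS2 lies lower on all 9 treated arrays than on the control array of the same line.

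YARS2, the mitochondrial tyrosyl-tRNA synthetase, lay below control on every treated array of its line. In ARP1 its level was 8.58 with CPI203, 8.48 with LenDex and 8.41 with Combo, against 8.80 in control. In JJN3 it was 8.50, 8.70 and 8.34 with these treatments, against 9.22, and in RPMI-8226 it was 8.58, 8.65 and 8.15, against 9.29. The 3 Combo levels did not overlap the 3 control levels. YARS2 fell with Combo by 0.80 ± 0.13 on the log2 scale (1.74-fold lower, adjusted p = 0.0106), by 0.39 for ARP1, 0.87 for JJN3 and 1.13 for RPMI-8226. Averaged over the design, it fell with CPI203 by 0.43 ± 0.09 (adjusted p = 0.031), while the LenDex average of -0.37 ± 0.09 was not called (adjusted p = 0.0597). The Combo call was lost without the control or the Combo array of JJN3 or of RPMI-8226 (adjusted p 0.0526 to 0.0658, effects -0.79 to -0.68). The average CPI203 call was lost without any 1 array of JJN3 or RPMI-8226 (up to 0.0969), and both calls were lost without either of these lines.

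LARS2, the mitochondrial leucyl-tRNA synthetase, was lower on arrays with CPI203 than on those without it. In ARP1 its level was 6.84 with CPI203 and 6.88 with Combo, against 7.40 with LenDex and 7.27 in control. In JJN3 it was 6.66 and 6.41 against 7.04 and 7.0, and in RPMI-8226 it was 7.11 and 7.29 against 7.35 and 7.72. Within every line the 2 arrays with CPI203 lay below the 2 without it. LARS2 fell with CPI203 by 0.43 ± 0.09 on average (1.35-fold lower, adjusted p = 0.025) and with Combo by 0.47 ± 0.12 (adjusted p = 0.0455), and its LenDex average was -0.04 ± 0.09. The average CPI203 call was lost without the control, CPI203 or Combo array of JJN3 or RPMI-8226 or the LenDex array of JJN3 (adjusted p up to 0.0815). It was also lost without any 1 whole line (0.0514 to 0.353). The Combo call held without the LenDex array of ARP1 or of RPMI-8226 but in none of the other 10 single-array omissions (up to 0.201).

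FARSA, the catalytic subunit of the cytosolic phenylalanyl-tRNA synthetase, was lowest with Combo in ARP1 and JJN3. Its levels were 9.67 with CPI203, 9.51 with LenDex and 9.46 with Combo in ARP1, against 9.86 in control. In JJN3 they were 9.34, 9.07 and 8.57 against 9.48, and in RPMI-8226 they were 9.30, 9.09 and 9.20 against 9.57. Every treated array lay below the control array of its line, and the Combo array of JJN3 lay well below the others. FARSA fell with Combo by 0.56 ± 0.13 (1.48-fold lower, adjusted p = 0.031) and with LenDex on average by 0.39 ± 0.09 (adjusted p = 0.0496). The LenDex call did not hold in any of the 12 single-array omissions (adjusted p 0.0521 to 0.13). The Combo call was lost without the control or Combo array of JJN3 or RPMI-8226 (up to 0.124). Without the Combo array of JJN3 the Combo effect was -0.38. FARSB, the partner subunit, had a Combo effect of -0.34 ± 0.12 that was not called (adjusted p = 0.115).

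IARS1, the cytosolic isoleucyl-tRNA synthetase and a member of the multi-synthetase complex, had the smallest of the called Combo effects. With CPI203, LenDex and Combo its levels were 11.92, 11.88 and 11.78 in ARP1, against 11.99 in control. They were 11.57, 11.53 and 11.21 against 11.69 in JJN3, and 11.36, 11.57 and 11.27 against 11.70 in RPMI-8226. The Combo array was the lowest of each line. IARS1 fell with Combo by 0.37 ± 0.10 (1.29-fold lower, adjusted p = 0.0432). Its 4 probe sets gave Combo effects between -0.37 and -0.32, none of them called when all probe sets were tested singly. The call held without the control or the Combo array of ARP1 and in none of the other 10 single-array omissions (adjusted p up to 0.179).

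Of the 35 transcripts, 5 fell and 0 rose with Combo against control, against a background of 9.15% of all genes tested called in either direction and 5.6% called lower. That background includes genes at low levels. Among genes with a mean log2 level of 6 or more, which include all 35, 7 of the 35 were called with Combo, against 21.4% of those genes. Counting direction alone, 28 of the 35 lay below 0, with a median of -0.158, against a median of 0.01 over all genes tested, of which 48.1% lay below 0. The cytosolic median was -0.206 with 17 of 19 below 0, and the mitochondrial median was -0.114 with 11 of 16 below 0. By line, 26 were below 0 for ARP1, 24 for JJN3 and 27 for RPMI-8226. The next in order, all with adjusted p above 0.05, were TARS1 (-0.33 ± 0.09, adjusted p = 0.0561), NARS1 (-0.37 ± 0.11, 0.0754), MARS1 (-0.36 ± 0.12, 0.0957) and GARS1 (-0.27 ± 0.09, 0.107). The values above 0 were those of QARS1 (0.16), SARS1 (0.07), RARS2 (0.19), VARS2 (0.15), HARS2 (0.04), AARS2 (0.03) and IARS2 (0.03), none called. Of the 5 Combo calls, 1 was left without the control array or the Combo array of JJN3 or of RPMI-8226, where 1.1% to 1.98% of all genes were called, and 0 without the whole JJN3 or RPMI-8226 line. Without the CPI203 array of any line or the LenDex array of JJN3, 3 were left, where 6.53% to 8.72% of all genes were called. With JJN3 and RPMI-8226 averaged into 1 line, 0 were called, and 3 genes of 15173 in all.

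**Figure D2:**
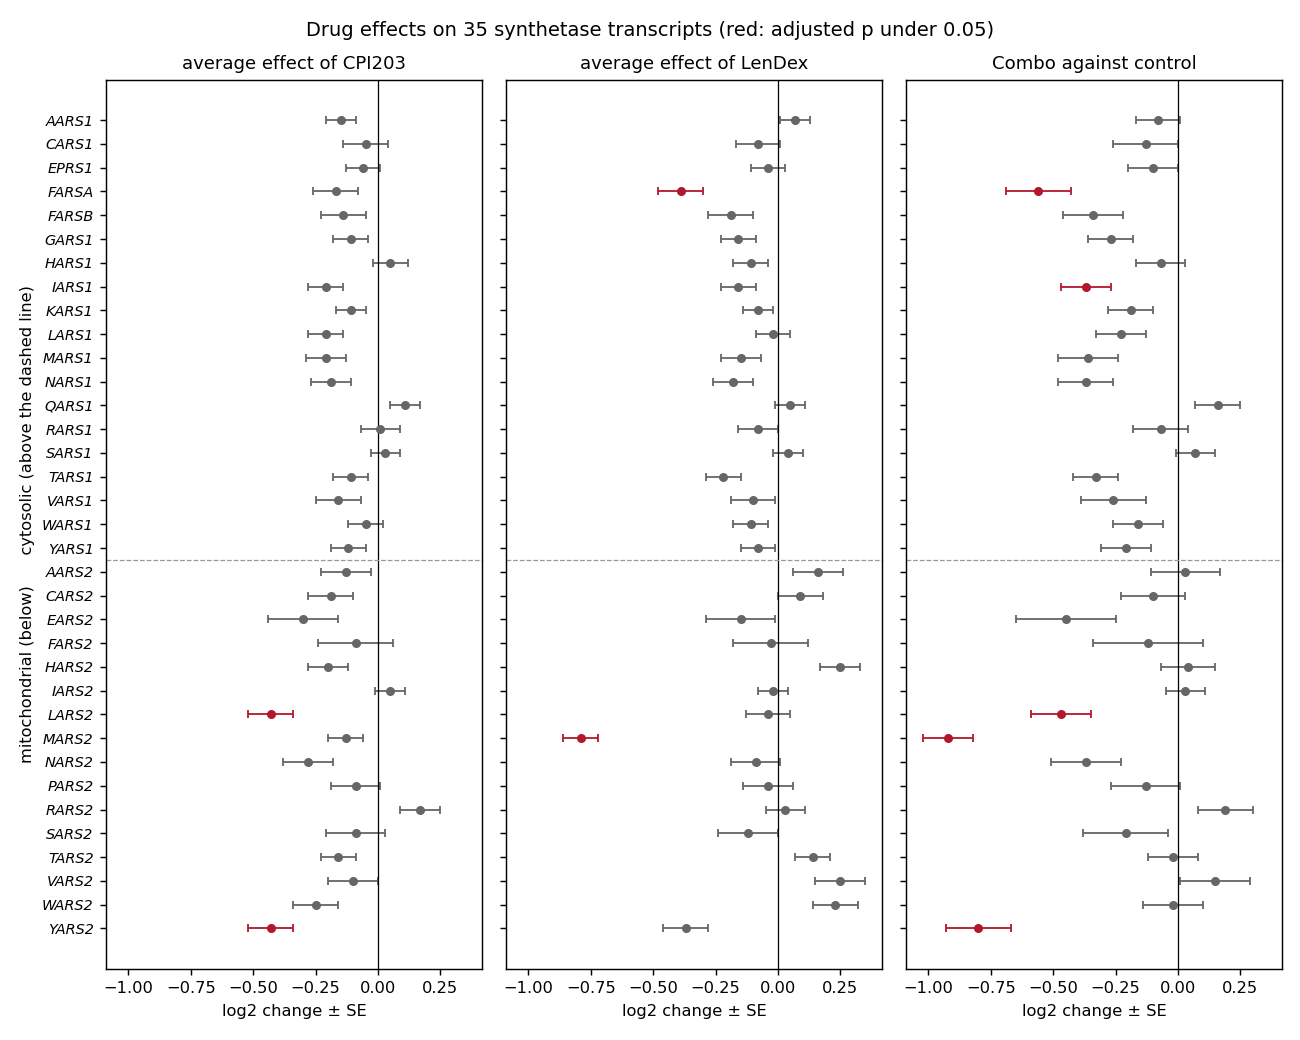
Log2 change with its standard error for each of the 35 synthetase transcripts (cytosolic above the dashed line, mitochondrial below), from left to right the average effect of CPI203, the average effect of LenDex and Combo against control, each from a fit to 12 arrays; red marks an adjusted p under 0.05. The points lie mostly left of 0, with 29, 25 and 28 of 35 below 0, and called points are few, with 2, 2 and 5.

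CPI203 alone called none of the 35 against control, where 1 gene of 15173 was called in all (0.00659%). That background rested on the ARP1 arrays, with 398 genes called without the control array of ARP1, 219 without its CPI203 array and 1015 without the whole ARP1 line. At an unadjusted p under 0.05 in limma there were 2456 of 15173 genes. Among them were 2 synthetases, YARS2 (-0.54 ± 0.13, adjusted p = 0.11) and LARS2 (-0.46 ± 0.12, adjusted p = 0.131). The next were RARS2 (0.22 ± 0.11) and LARS1 (-0.20 ± 0.10). The median of the 35 was -0.137 against -0.01 over all genes, and 30 of 35 lay below 0 against 52.4% of all genes. Without the control array of ARP1, YARS2 was called (-0.70, adjusted p = 0.0343). In the average effect of CPI203, 2 were called, LARS2 and YARS2, against 7.28% of all genes called and 3.99% called lower. Direction alone gave 29 of 35 below 0 with a median of -0.13, against -0.003 over all genes. No call was left without any 1 array of JJN3 or without the control, CPI203 or Combo array of RPMI-8226, and 1 was left without the LenDex array of RPMI-8226. Over all genes these omissions called only 0.389% to 0.778%. Without the LenDex array of ARP1 there were 4 (8.58% of all genes called), and without the whole ARP1 line 5 (15.8%). Among genes with a mean log2 level of 6 or more, 3 of the 35 had an average CPI203 call, against 19.3% of those genes.

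LenDex alone called 1 of the 35 against control, MARS2, where 0.461% of all genes were called and 0.217% were called lower. The cytosolic and mitochondrial genes differed in direction here, with 16 of 19 below 0 among cytosolic genes (median -0.111) and 7 of 16 among mitochondrial genes (median 0.035). Over all genes 50.7% lay below 0. This difference between the compartments was not tested. The direction also moved with the scaling. With cyclic loess scaling 19 of the 35 lay below 0 (median -0.008, all genes 0.018), against 23 (median -0.066, all genes -0.003) as reported. The average effect of LenDex called 2, MARS2 and FARSA, against 4.25% of all genes called and 2.52% called lower, and 1 was left in 10 of the 12 single-array omissions, all except the control array and the Combo array of ARP1 (2 each). Those 10 omissions called 1.01% to 3.8% of all genes, and the ARP1 control and Combo omissions 5.08% and 4.31%. Without the whole JJN3 or RPMI-8226 line, 0 were left, where 0.0132% and 0.033% of all genes were called.

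The histidine pair stood out by position. HARS1, the cytosolic enzyme, and HARS2, its mitochondrial counterpart, lie head to head on chromosome 5, where their promoter windows share 184 bases on opposite strands. With LenDex, HARS2 had levels of 8.16 (ARP1), 8.24 (JJN3) and 8.11 (RPMI-8226), against 7.92, 7.66 and 7.97 in control. HARS1 levels were 10.15, 10.24 and 10.28 with LenDex, against 10.42, 10.26 and 10.32. The HARS2 array level was higher than control in all 3 lines and the HARS1 level lower in all 3, though the HARS1 gaps for JJN3 and RPMI-8226 were small. The Combo arrays, which also carry LenDex, did not repeat this. HARS2 lay at 7.97, 7.93 and 7.78 with Combo, below control for RPMI-8226, and HARS1 at 10.13, 10.40 and 10.27, above control for JJN3. The average LenDex effect was 0.25 ± 0.08 for HARS2 (adjusted p = 0.101) and -0.11 ± 0.07 for HARS1, neither called. With cyclic loess scaling HARS2 was called (0.30, adjusted p = 0.0497) and FARSA was not (-0.33, adjusted p = 0.0912).

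No synthetase was called for a Combo effect that departed from the sum of its parts. In the interaction of CPI203 and LenDex, 0 of the 35 were called and 0 had an unadjusted p under 0.05 in limma, and over all genes 0.0% were called, with 472 at an unadjusted p under 0.05. The smallest p values belonged to NARS2 (-0.28 ± 0.20), YARS2 (0.24 ± 0.19), HARS2 (-0.14 ± 0.15) and WARS2 (-0.14 ± 0.17), each with an adjusted p of 1.0.

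Differences between lines in the drug effects were tested in a fit with 3 residual degrees of freedom. None of the 35 was called for CPI203, with 3 at an unadjusted p under 0.05 (2237 of 15173 over all genes) and 0.323% of all genes called. None was called for LenDex, with 2 at an unadjusted p under 0.05 (2071 of 15173 over all genes) and 0.369% of all genes called. The smallest p for CPI203 was that of FARS2, the mitochondrial phenylalanine enzyme, with effects of 0.33 for ARP1, -0.13 for JJN3 and -0.48 for RPMI-8226 (adjusted p = 0.22). VARS2, VARS1 and EARS2 followed at adjusted p values of 0.26, 0.294 and 0.34. For LenDex it was EARS2, the mitochondrial glutamate enzyme, with -0.57, 0.25 and -0.14 in the same lines (adjusted p = 0.181), followed by FARS2, PARS2 and AARS2 at 0.343, 0.436 and 0.451.

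The 6 genes with TTGCATCA and the other 24 genes with a promoter in the table were set side by side without a test. With Combo the 6 had a median of -0.34 and all 6 lay below 0, between -0.37 and -0.08. The other 24 had a median of -0.12 and 19 lay below 0, between -0.92 and 0.19. For the average CPI203 effect the medians were -0.17 and -0.11, and for LenDex they were -0.16 and -0.06. Of the 4 genes with an E-box, the Combo effects were -0.92 in MARS2, -0.45 ± 0.20 in EARS2, -0.37 in IARS1 and -0.10 ± 0.13 in CARS2.

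ATF4 itself did not pass the test in any drug comparison, and its Combo effect was -0.01 ± 0.09 (adjusted p = 0.966). Among 32 tested genes of the amino acid response and ATF4 target list, 6 fell and 4 rose with Combo, against 5.6% of all genes called lower and 9.15% called in either direction. They included DDIT4, a stress-induced inhibitor of mTORC1 (1.94 ± 0.34), ATF3, a stress-induced transcription factor (1.39 ± 0.36), STC2, a secreted glycoprotein (-1.06 ± 0.17), and SLC7A11, the cystine transporter (-0.90 ± 0.14). The average CPI203 effect lowered 4 and raised 3 of this list, against 7.28% of all genes called and 3.99% called lower. Among them were ATF3 (1.22 ± 0.25), STC2 (-0.81 ± 0.12), the leucine sensor SESN2 (0.59 ± 0.07) and the proline enzyme PYCR1 (-0.45 ± 0.09). The average LenDex effect raised DDIT4 (1.54 ± 0.24) and the amino acid transporter SLC38A2 (0.57 ± 0.10) and lowered SLC7A11 (-0.56 ± 0.10). Over all genes this effect called 4.25%, with 2.52% called lower. The list thus moved in both directions. Its Combo count was 0 to 6 lower and 1 to 4 higher over the 12 single-array omissions, with 0 and 1 without the control or the Combo array of RPMI-8226. SESN2 with CPI203, and DDIT4 and SLC38A2 with LenDex, kept their average calls in all 12 of these omissions.

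EIF2AK4, which encodes GCN2, the kinase that senses uncharged tRNA, was changed in opposite directions by the drugs. With LenDex its levels were 7.38 (ARP1), 6.41 (JJN3) and 6.83 (RPMI-8226), against 6.58, 5.63 and 6.37 in control. With CPI203 they were 6.31, 5.37 and 5.92, below control in each line. EIF2AK4 rose with LenDex by 0.68 ± 0.10 against control (adjusted p = 0.0308) and by 0.57 ± 0.07 on average (adjusted p = 0.00585), and fell with CPI203 by 0.43 ± 0.07 on average (adjusted p = 0.0152). The average LenDex call held in all 12 single-array omissions (adjusted p 0.00851 to 0.024), the average CPI203 call in 7 (up to 0.0564) and the call against control in 3 (up to 0.143). Of the 14 genes of the eIF2 kinases and phosphatase list, 2 rose and 2 fell with Combo, where 9.15% of all genes were called: the phosphatase subunit PPP1R15A (0.93 ± 0.24) and the kinase EIF2AK3 (0.58 ± 0.15) were higher, while EIF2S1, the eIF2 alpha subunit (-0.47 ± 0.12), and PPP1R15B (-0.32 ± 0.09) were lower. PPP1R15A (0.86 ± 0.17) and EIF2AK3 (0.49 ± 0.10) also rose with CPI203 on average, where 7.28% of all genes were called. Without 1 array, 0 to 2 of the list were called higher with CPI203. The rises were small on ARP1 arrays. PPP1R15A lay at 6.93 with CPI203 against 6.78 in control for ARP1, 9.86 against 8.9 for JJN3 and 8.91 against 7.57 for RPMI-8226. EIF2AK3 lay at 8.97 against 8.92, 8.49 against 7.75 and 8.26 against 7.5. PPP1R15B fell by 0.37 ± 0.06 with LenDex on average (4.25% of all genes called), with 0 to 1 of the list called lower without 1 array. Over the single-array omissions the Combo count was 0 to 2 higher and 0 to 1 lower, with none left without the control, CPI203 or Combo array of JJN3 or the control or Combo array of RPMI-8226.

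Genes that work beside the mitochondrial synthetases were read from a separate list. It holds mitochondrial translation factors together with genes of mitochondrial transcription, RNA processing and tRNA modification. Of its 19 tested genes, 8 fell and 0 rose with Combo, with a median of -0.312, against 5.6% of all genes called lower and a median of 0.01. Without 1 array, 0 to 8 were called lower, with 0 left without the control array of RPMI-8226 and 2 without its Combo array or the control or Combo array of JJN3. The largest changes were in genes that are not translation factors. They were PNPT1, a mitochondrial RNA-processing nuclease (-0.97 ± 0.15), TFB2M, the mitochondrial transcription factor (-0.83 ± 0.14), PUS1, a tRNA pseudouridine synthase (-0.58 ± 0.10), and TRMT10C, a subunit of mitochondrial RNase P (-0.56 ± 0.10). CPI203 on average lowered TFB2M (-0.45 ± 0.10) and PUS1 (-0.40 ± 0.07), and LenDex on average lowered PNPT1 (-0.59 ± 0.11), TRMT10C (-0.46 ± 0.07) and the elongation factor GFM1 (-0.28 ± 0.07). Over all genes these effects called 3.99% (CPI203) and 2.52% (LenDex) lower. Without 1 array, 0 to 5 of the list were called lower with CPI203 and 1 to 4 with LenDex.

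Among 10 tested partners of tRNA charging, 3 fell and 1 rose with Combo, against 5.6% of all genes called lower and 9.15% called in either direction. None of these calls was left without the control or the Combo array of JJN3 or of RPMI-8226. QRSL1 (-0.89 ± 0.20) and GATC (-0.55 ± 0.13), subunits of the amidotransferase that makes mitochondrial glutaminyl-tRNA, fell, as did the D-aminoacyl-tRNA deacylase DTD2 (-0.50 ± 0.12). SEPSECS, which makes selenocysteinyl-tRNA, rose (0.70 ± 0.13). CPI203 on average lowered QRSL1 (-0.60 ± 0.14) and raised MTFMT, the mitochondrial methionyl-tRNA formyltransferase that acts on the product of MARS2 (0.42 ± 0.11). Over all genes this effect called 7.28%, with 3.99% called lower. Without 1 array, 0 to 2 of these partners were called lower and 0 to 2 higher. None of the 7 cytosolic elongation factors was called with Combo, and 1 had an unadjusted p under 0.05 (3692 of 15173 over all genes).

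MYC fell with Combo by 0.81 ± 0.15 (1.76-fold lower, adjusted p = 0.0128). Its Combo levels were 11.64 (ARP1), 11.33 (JJN3) and 10.70 (RPMI-8226), against 12.35, 11.97 and 11.79 in control. The call was lost without the Combo array of JJN3 or the control or Combo array of RPMI-8226 (adjusted p up to 0.0779, effects -0.88 to -0.69 over the 12 single-array omissions). With JJN3 and RPMI-8226 averaged the effect was -0.79 (adjusted p = 0.109). On average MYC fell with CPI203 by 0.51 ± 0.10 (adjusted p = 0.025), and the LenDex average of -0.31 ± 0.10 was not called (adjusted p = 0.136). This CPI203 call held in 4 of the 12 single-array omissions, those of ARP1 (up to 0.0799 in the others). Of the 10 genes of the MYC network list, MLX, a partner of the Mondo factors, also fell with Combo (-0.40 ± 0.08), and MXD4, a MAX-binding repressor, rose (1.36 ± 0.37). Combo called 9.15% of all genes, with 5.6% called lower. MXD4 differed from control by 0.08 on ARP1 arrays, against 2.37 (JJN3) and 1.64 (RPMI-8226), and its call held in 2 of the 12 single-array omissions (effects 0.84 to 1.91). A further MAX-binding repressor, MXD1, rose with CPI203 on average (0.91 ± 0.22), a call that held in 4 of the 12.

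The arrays labelled ARP1 differed from the others in both directions. Of the 35, 24 were called between ARP1 and the mean of JJN3 and RPMI-8226, against 49.5% of all genes tested. Of these, 13 were lower in ARP1 (background 25.4%) and 11 higher (background 24.1%). The 4 arrays of a line come from 1 line under different treatments. This test sets the line difference against the spread left after line and treatment are fitted, and does not generalise to other lines. The direction was split within both compartments, with 6 lower and 7 higher among cytosolic genes and 7 lower and 4 higher among mitochondrial genes. Among genes with a mean log2 level of 6 or more, 26 of the 35 were called in this comparison, against 72.8% of those genes.

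SARS1, the cytosolic seryl-tRNA synthetase, had levels of 9.46 to 9.56 on ARP1 arrays, against 11.34 to 11.38 on JJN3 and 11.06 to 11.17 on RPMI-8226 arrays. It was 3.35-fold lower in ARP1 (-1.75 ± 0.06, adjusted p = 4.98e-09). The mitochondrial valine and tryptophan enzymes were lower to a similar degree. VARS2 lay at 6.50 to 6.80 on ARP1 arrays, against 7.72 to 8.36 on JJN3 arrays and 8.58 to 9.01 on RPMI-8226 arrays (3.35-fold lower, -1.74 ± 0.10). WARS2 lay at 6.36 to 7.0 on ARP1 arrays, against 8.12 to 8.42 on JJN3 arrays and 7.97 to 8.53 on RPMI-8226 arrays (3.08-fold lower, -1.62 ± 0.09). For none of the 3 did the ARP1 range overlap the other arrays. The 4 probe sets of VARS2 disagreed, with differences between -1.74 and 0.03. Of the 4 probe sets of WARS2, the 3 that passed the filter on low levels lay between -1.75 and -1.48.

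The other 10 that were called lower in ARP1 were CARS2 (-0.97 ± 0.10), PARS2 (-0.73 ± 0.11), CARS1 (-0.72 ± 0.10), WARS1 (-0.63 ± 0.07), MARS2 (-0.60 ± 0.07), FARS2 (-0.56 ± 0.16), RARS2 (-0.44 ± 0.08), AARS1 (-0.40 ± 0.07), TARS1 (-0.38 ± 0.07) and GARS1 (-0.30 ± 0.07). WARS1, the interferon-inducible tryptophanyl-tRNA synthetase, lay at 10.67 to 10.78 on ARP1 arrays, against 11.33 to 11.61 on JJN3 arrays and 11.09 to 11.29 on RPMI-8226 arrays. The 4 probe sets of WARS1 ranged from -0.63 to -0.07 and 2 were called. For MARS2 the difference rests on the probe set used, since its 3 probe sets ranged from -0.60 to -0.02 and only 1 was called.

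TARS2, the mitochondrial threonyl-tRNA synthetase, had the largest positive difference of the 35. Its levels were 9.58 to 9.90 on ARP1 arrays, against 8.03 to 8.40 on JJN3 arrays and 8.30 to 8.50 on RPMI-8226 arrays (2.54-fold higher, 1.34 ± 0.07, adjusted p = 1.48e-07). VARS1, the cytosolic valyl-tRNA synthetase, averaged 10.06 ± 0.08 on ARP1 arrays, against 8.76 ± 0.26 on JJN3 and 9.41 ± 0.08 on RPMI-8226 arrays (SD, n = 4 each). It was 1.97-fold higher in ARP1 (log2 difference 0.98 ± 0.09). The valine pair therefore went in opposite directions, VARS1 higher and VARS2 lower in ARP1, as did the serine pair, with SARS2 higher (0.49 ± 0.13) and SARS1 lower, and the threonine pair, with TARS2 higher and TARS1 lower. LARS1 (0.75 ± 0.08), FARSB (0.64 ± 0.09), FARSA (0.42 ± 0.10), IARS1 (0.40 ± 0.07), AARS2 (0.35 ± 0.10), IARS2 (0.31 ± 0.06), MARS1 (0.25 ± 0.09) and EPRS1 (0.22 ± 0.07) were also higher. For FARSB, MARS1 and SARS2, 1 probe set each gave the opposite sign, at -0.04, -0.01 and -0.10, and of the 2 probe sets of AARS2 (0.03 and 0.35) only 1 was called.

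**Figure D3:**
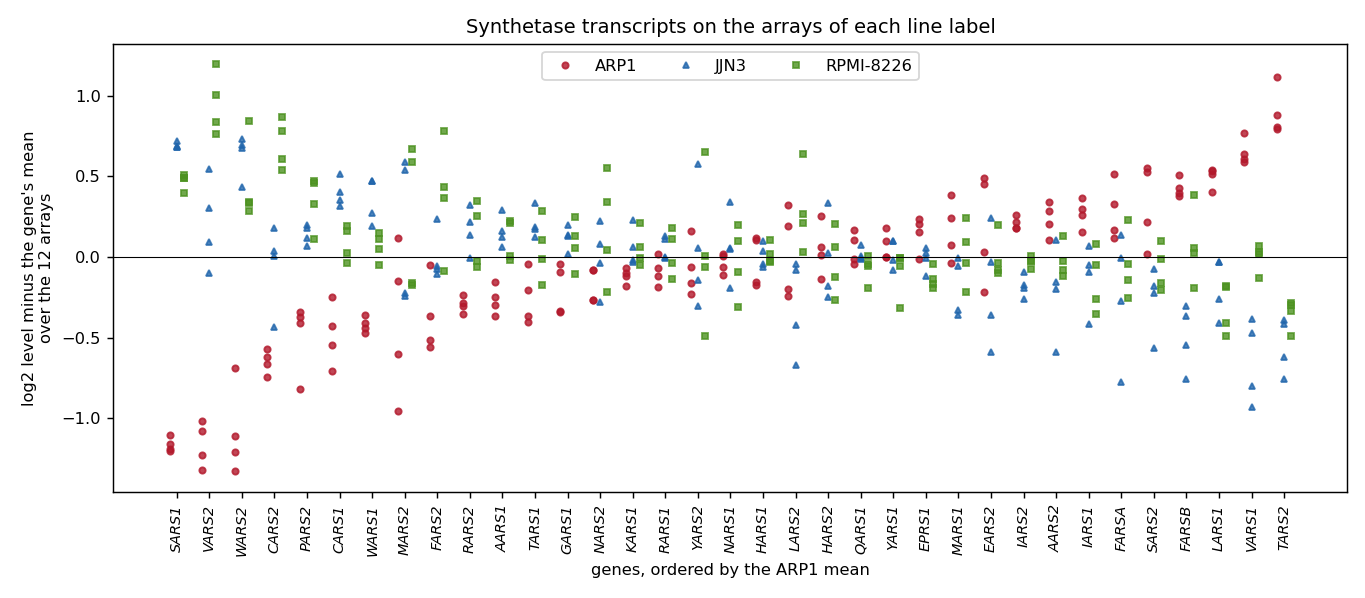
Log2 level minus the mean of that gene over the 12 arrays, for the 35 synthetase transcripts ordered by the ARP1 mean, with 4 arrays (1 per treatment) for each of ARP1, JJN3 and RPMI-8226 from left to right within a gene. ARP1 points are farthest below 0 for SARS1, VARS2 and WARS2 and farthest above 0 for TARS2 and VARS1, outside the range of the other 8 arrays.

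Ranges were compared for the 35 genes only. The share over all genes was not counted, so the range counts are a description, beside 49.5% of all genes called in the ARP1 comparison. Over the 35 genes, the ARP1 range lay wholly below that of the 8 other arrays for 10, wholly above for 5, and overlapped for 20. JJN3 and RPMI-8226 arrays overlapped for 26, with JJN3 wholly below for 6 and wholly above for 3. The widest of these gaps between means were in CARS2 (-0.75), VARS2 (-0.74), VARS1 (-0.65), LARS2 (-0.59) and FARSB (-0.56), all lower on JJN3 arrays than on RPMI-8226 arrays. ATF4 was 1.67-fold lower in ARP1 (-0.74 ± 0.07, adjusted p = 8.82e-06). Of the 32 genes of its list, 19 were called lower and 4 higher in ARP1, against 25.4% and 24.1% of all genes tested. The largest of these differences were in CTH (-4.15), ATF3 (-3.45), ATF5 (-3.23) and SESN2 (-2.37). CTH lay at 4.69 to 5.13 on ARP1 arrays and ATF3 at 5.0 to 6.33, close to background, so for CTH and ATF3 the size is a lower bound. MYC was 1.52-fold higher in ARP1 (0.61 ± 0.11, adjusted p = 0.000931).

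SARS1, WARS2 and TARS2 all lie on chromosome 1, and the 10 tested genes on either side of each were read in RefSeq order as a description, beside 52.3% of all genes tested below 0, 25.4% called lower and 24.1% called higher. Of the 20 neighbours of SARS1, 19 were lower in ARP1, with 11 called lower and 1 called higher (HENMT1, 2.06), and their median difference was -0.38. Of the 20 neighbours of TARS2, 5 were lower, with 13 called higher and 3 called lower, and the median was 0.65. WARS2 had 11 of 20 lower, 6 called lower and 4 called higher, and a median of -0.03. Neighbours of some other members leaned the way of the member. Of 20, 17 were lower around AARS1 (9 called lower), 11 were called lower around FARS2 (median -0.47), and 10 were called higher around SARS2 (median 0.25). Others leaned against it. Around CARS1 (-0.72), 3 were called lower and 7 higher, and around GARS1 (-0.3), 3 lower and 6 higher. Around VARS2 (-1.74), 6 were called lower and 2 higher, with a median of -0.08. PHGDH, the first enzyme of serine synthesis, is 3 genes from WARS2 and was lower in ARP1 (log2 difference -2.07).

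**Figure D4:**
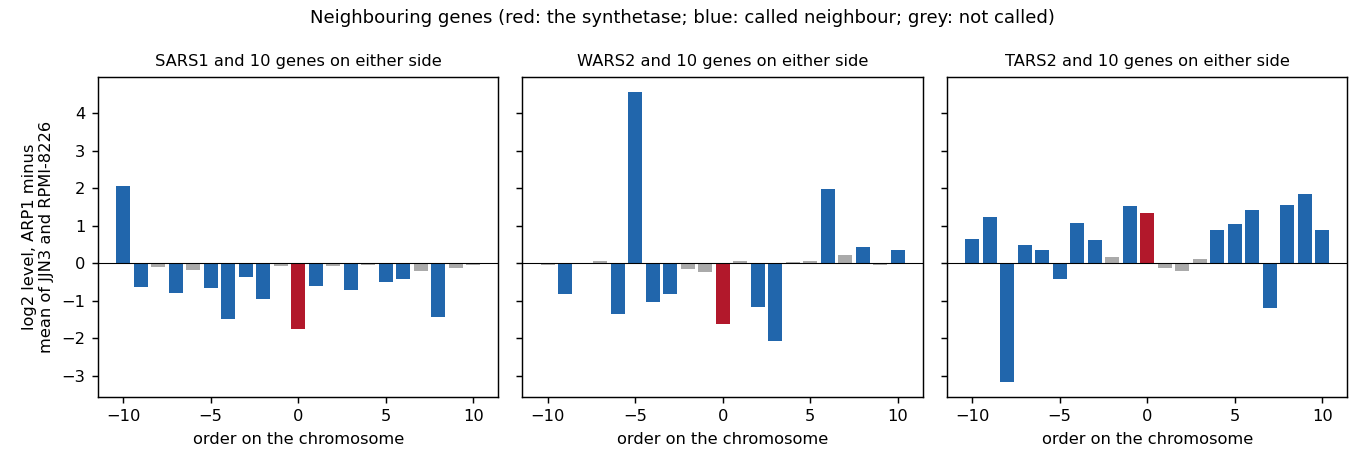
Log2 level in ARP1 minus the mean of JJN3 and RPMI-8226 (vertical axis) for SARS1, WARS2 and TARS2 (red, position 0) and the 10 tested genes on either side in chromosome order (horizontal axis, order only and not distance); blue bars are called and grey bars are not. Bars around SARS1 are mostly below 0 (19 of 20) and bars around TARS2 mostly above 0 (15 of 20).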

How the data were processed

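The deposited table holds log2 probe set levels, which the authors made by RMA, and the submitters' processing notes name Affymetrix Expression Console 1.1. RMA scales all arrays to 1 distribution (array medians 5.304 to 5.375). Of 49386 probe sets, 93 were controls, 45253 carried 1 gene symbol, 1327 carried several and were left out, and 2713 were unnamed in the annotation used. For each gene the probe set with the highest mean was used (27 of the 35 synthetases had several), and genes reaching a log2 level of 5 on at least 3 arrays were tested. Levels were fitted with limma 3.58.1 (R 4.3.3) with treatment and cell line as terms over all 12 arrays (6 residual degrees of freedom), with Benjamini-Hochberg adjustment over 15173 genes. On simulated data with 200 of 15173 genes changed 1.5-fold, the fit recovered 24% for CPI203, 32% for LenDex, 90.5% for average CPI203 and 87% for average LenDex; of 200 changed 2-fold it recovered 94%, 93%, 99.5% and 99%. False calls numbered 5 to 14 in these runs. The simulated noise was independent on all 12 arrays, with no differences between lines in the drug effects. These shares therefore do not cover the case that JJN3 and RPMI-8226 are not independent lines. Combo was not simulated. The labels tie each replicate number to a cell line, and deviations of same-line arrays correlated at 0.82 to 0.94, so the line is a block. Arrays have no read depth, and their number limits the precision.

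The members and gene lists were chosen with earlier results of these data known. Every synthetase is accounted for; called synthetases are named, or the 4 with the smallest p where none is called. MYC and ATF4 are always named, and of each list of other genes at most the 4 called genes with the largest changes. HENMT1 and PHGDH were named after their values were seen, as were HBG1, KRT18 and JCHAIN. So were the histidine pair, the gaps between JJN3 and RPMI-8226, and the members named for their chromosome neighbours. No build is named for the array table, so coordinates come from the RefSeq promoter table alone. Alternatives changed the filter, the probe set rule, the scaling, the variance prior and the block, and left out arrays and lines.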

Additional observations from a re-analysis of the deposited data

Results flagged for a closer look

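Among the synthetases and the listed genes, the CPI203 effect differed between lines in 1 gene, MXD1, a MAX-binding repressor of the MYC network. Its average CPI203 effect was 0.11 for ARP1, 1.37 for JJN3 and 1.24 for RPMI-8226, and the test of the line-by-drug terms gave an adjusted p of 0.0478 in limma with 3 residual degrees of freedom. The call did not hold in any of the 12 single-array omissions (adjusted p 0.136 to 0.236) or with JJN3 and RPMI-8226 averaged (0.0715). Groups of 3 arrays were too small for a search for single outlying arrays.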

How the results depend on the processing

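With the probe set reported for each gene, no called synthetase changed sign; other probe sets of FARSB, MARS1, SARS2 and VARS2 gave the opposite sign in the ARP1 comparison (-0.04, -0.01, -0.10 and 0.03). Over 740 repeats of single calls, 588 stayed called: 471 of 504 in the ARP1 comparison and 117 of 236 in the drug comparisons. Without the line as a replicate block, LenDex, Combo, average CPI203 and average LenDex called 0 synthetases each, and likewise 0 each with JJN3 and RPMI-8226 averaged (fewer arrays). The 6 arrays of a comparison alone gave 0 for LenDex and 0 for Combo. A variance trend with a robust prior gave 2 for LenDex, 10 for Combo, 4 for average CPI203, 5 for average LenDex and 1 (NARS1) for the line difference in CPI203, where the reported counts are 1, 5, 2, 2 and 0. Averaging the probe sets of a gene gave 9 for Combo and 4 for average LenDex, against 10.9% and 6.04% of all genes. For average LenDex, no filter gave 1, a mean level of 6 or more gave 4, and probe sets tested singly gave 1. Leaving out 1 array or 1 line gave 0 to 1 for CPI203, 0 to 1 for LenDex, 0 to 6 for Combo, 0 to 5 for average CPI203, 0 to 2 for average LenDex, 0 to 0 for the interaction and both line differences, and 19 to 24 for ARP1. Over all genes, the same omissions called 0.0% to 14.6% for Combo and 0.0% to 15.8% for average CPI203. MARS1 and EPRS1 were the least stable ARP1 calls, kept in 8 and 10 of 21 alternatives. The causes of these shifts were not tested. The number of arrays and of independent lines limits every drug comparison, and levels near 5 lie close to background.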
